A study of Homo sapiens with 24 samples.

Results

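The MX and GBP antiviral GTPases are described here by 7 genes, MX1, MX2, GBP1, GBP2, GBP3, GBP4 and GBP5, chosen by name from the 60609 rows of a gene expression table. All 7 were among the 16062 genes that reached 1 TPM (an abundance corrected for transcript length and scaled so that every library has the same total) in at least 3 libraries. The libraries came from A549 cells, an established human lung adenocarcinoma line. Cells were transfected for 48 h with a SMARTpool of siRNAs against BOP1, a factor needed to mature the large ribosomal subunit (siBOP1), or with an siRNA against firefly luciferase (siFLuc, the control). Mock treatment or interferon beta (IFN, 1000 U/mL) followed for 8 h or 12 h, which makes 8 groups of 3 libraries. All groups therefore carry a transfected siRNA, and an untransfected group was not analysed here.

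MX and guanylate-binding proteins belong to the dynamin superfamily, large GTPases that assemble on membranes or on pathogen structures and use GTP hydrolysis to reshape or block them. MX1 (MxA) is a cytoplasmic protein best known for blocking influenza viruses, and MX2 (MxB) sits at nuclear pores and restricts HIV and herpesviruses. The GBPs coat intracellular bacteria and parasitic vacuoles and also act on enveloped viruses. Type I interferon signals through IFNAR1 and IFNAR2 and the kinases JAK1 and TYK2 to ISGF3, a transcription factor complex that contains STAT2 and IRF9 and binds the interferon-stimulated response element (ISRE). GBPs are also classical targets of interferon gamma, through the gamma-activated site (GAS) and through IRF1.

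The members lie in a pair of clusters (GENCODE 29 coordinates on GRCh38; the build behind the table is not given in the sources used here). MX2 (chr21:41361943-41409390) and MX1 (chr21:41420304-41459214) lie in tandem on the plus strand, 10.9 kb apart. The GBP cluster on chromosome 1, from GBP3 to the end of the pseudogene GBP1P1, spans 420 kb. The 5 GBP members lie in part of it, all on the minus strand: GBP3 (chr1:89006666-89022894), GBP1 (chr1:89052319-89065360), GBP2 (chr1:89106132-89150456), GBP4 (chr1:89181148-89198932) and GBP5 (chr1:89258950-89272804). GBP7 lies between GBP2 and GBP4 and overlaps GBP2 on the same strand. MX1, GBP4 and GBP5 each overlap an annotated antisense gene.

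Promoter windows of 300 bases around RefSeq start sites (GRCh38.p14) were on hand for 4 members: 1 window each for GBP1, GBP3 and GBP4, and 3 for MX1. They are shown because the core ISRE letters, TTTCNNTTTC read on both strands, occurred in 5 of these 6 windows and in at least 1 window of each of the 4 genes, against 3.57% of 35116 windows of the same length. In the sequences below, capitals mark that match, and the position counts from the RefSeq start. RefSeq and GENCODE 29 starts can differ: GENCODE 29 begins GBP1 at chr1:89065360, ahead of the RefSeq start at 89065208 and of the match. Each ISRE match below, except that of GBP4, overlapped an untranslated region annotated in GENCODE 29.

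GBP3, starting at position 3 (chr1:89022845-89022874, minus strand): aaagaagtacTTTCAGTTTCattaggctct

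GBP1, starting at position -127 (chr1:89065316-89065345, minus strand): aacgaagtacTTTCAGTTTCatattactct

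GBP4, starting at position -4 (chr1:89198927-89198956, minus strand): gtgcatgtccTTTCAATTTCggttctcaca

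MX1, most upstream window, starting at position 12 (chr21:41420559-41420588, plus strand, the match on the opposite strand): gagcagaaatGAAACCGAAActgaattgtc

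MX1, most downstream window, starting at position -196 (chr21:41431844-41431873, plus strand): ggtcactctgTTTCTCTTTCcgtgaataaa

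The GBP3 and GBP1 windows shared a run of 19 bases that contains the match, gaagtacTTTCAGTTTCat. The core GAS letters, TTCNNNGAA, occurred in 2 of the 6 windows, 1 of GBP3 and 1 of MX1, against 7.66% of all windows. In GBP3 the GAS match began at position -15, ahead of the ISRE match (chr1:89022863-89022892, minus strand, GAS letters in capitals): tactgagtcacTTCCTTGAAagaagtactt. In MX1 the GAS match lay in the most downstream window and shared bases with the ISRE match printed above. A form with 1 free letter, TTTCNTTTC, was searched after the windows were seen and occurred in 2 of the 6, both of MX1, against 3.12% of all windows. These matches describe letters in the windows and were not tested for binding.

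The cells carried the labelled knockdown, and general cell type markers were read beside the A549 label, which such markers cannot establish. BOP1 lay between 10.0 and 19.5 TPM in the 12 siBOP1 libraries and between 32.4 and 78.8 TPM in the 12 siFLuc libraries, a mean of 23.5% to 29.6% of the matched control. All 5 epithelial markers listed reached 1 TPM in every library, whereas 4 of 5 leukocyte, 3 of 3 endothelial and 2 of 3 fibroblast markers stayed below 1 TPM in every library. Summed levels were 4024 to 5991 TPM (mock) and 4701 to 6864 TPM (IFN) for epithelial markers. They were 1.83 to 5.53 and 2.27 to 4.48 TPM for leukocyte markers, 0.034 to 0.368 and 0.035 to 0.426 TPM for endothelial markers, and 5.37 to 19.3 and 5.68 to 18.2 TPM for fibroblast markers. The exceptions were CD14 and COL1A1, at 1.81 to 5.26 and 5.37 to 19.3 TPM in mock libraries. The epithelial marker EPCAM held 2.175 to 5.477 TPM there. Of the leukocyte markers, 2 were listed at 0 throughout. Between 13844 and 14509 genes per library reached 1 TPM, and Pearson r between libraries of a group was 0.961 to 0.988. The number of reads behind each library is unknown, since TPM does not carry it. In each group 2 libraries carry the labelled replicate numbers 1 and 2, and the other carries the number 4, which matches no label and is used by its group only.

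Interferon moved the group from a minor to a large transcript class. The 7 genes summed to 22.9 to 36.0 TPM in the 12 mock libraries, with a median of 34.3, and to 1127 to 1665 TPM in the 12 IFN libraries, with a median of 1422. The balance within the group turned over: the GBPs held 22.0 to 35.0 TPM of the mock sum and the MX pair 0.886 to 2.86 TPM, whereas under IFN the MX pair held 708 to 1065 TPM and the GBPs 403 to 660 TPM. In bulk RNA, a change in the number of responding cells cannot be told apart from a change in RNA per cell.

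MX1 was the most abundant member under IFN and had the largest rise on the log2(TPM + 1) scale. In siFLuc cells at 8 h it measured 1.60, 2.54 and 0.709 TPM in the mock libraries and 979, 839.5 and 815 TPM in the IFN libraries. At 12 h the same cells gave 1.79, 1.99 and 1.04 TPM and then 865, 832 and 742 TPM. The lowest IFN library was 321 times the highest mock library at 8 h and 372 times at 12 h. In siBOP1 cells the mock values were 1.42, 0.931 and 1.12 TPM at 8 h and 2.47, 1.65 and 1.36 TPM at 12 h, and the IFN values were 896, 843 and 815 TPM at 8 h and 701, 732 and 644 TPM at 12 h. In limma's fit over all genes the log2(TPM + 1) difference between IFN and mock was 8.45 and 8.30 in control cells (8 h, then 12 h) and 8.63 and 7.96 after BOP1 depletion, each with an SE of 0.19. Among the 16062 tested genes MX1 ranked 2nd, 3rd, 2nd and 5th by this difference.

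MX2 went from close to 0 to an abundant transcript. Its 12 mock libraries held 0.018 to 0.369 TPM, with a median of 0.145. Under IFN the siFLuc libraries held 86.0, 74.2 and 84.5 TPM at 8 h and 96.5, 84.3 and 66.2 TPM at 12 h. The siBOP1 libraries held 108, 100.3 and 82.7 TPM at 8 h and 70.3, 77.7 and 64.5 TPM at 12 h, so the highest and the lowest IFN libraries of MX2 were both siBOP1 libraries. The log2(TPM + 1) differences were 6.00, 6.26, 6.45 and 5.95 in the order given for MX1, with an SE of 0.14. As ratios of mean TPM the MX2 rise was 282, 1046, 847 and 436 times, above the 542, 506, 736 and 380 times of MX1 in 3 of the 4 comparisons. These ratios rest on MX2 mock values of at most 0.369 TPM, whose counting error is unknown. Within a library MX1 exceeded MX2 8.27 to 11.4 times under IFN in all 12 libraries.

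GBP1, which binds bacterial lipopolysaccharide and recruits caspase-4, was the most abundant GBP under IFN but not in mock cells. Its mock libraries held 4.60 to 9.33 TPM with a median of 7.30. In siFLuc cells IFN gave 314, 282 and 228 TPM at 8 h and 269, 254 and 202 TPM at 12 h. In siBOP1 cells it gave 346, 309 and 284 TPM at 8 h and 226, 247 and 200.3 TPM at 12 h. These means were 50, 31.5, 45.7 and 28.2 times the matched mock means, and the fitted differences were 5.40, 4.80, 5.34 and 4.66 with an SE of 0.16. The order of the ratios followed time more than siRNA. Differences with time and with siRNA were tested separately, as given below, and not against each other.

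GBP3, an isoform of which is known to limit influenza virus, came next after GBP1 among the GBPs under IFN. In siFLuc cells at 8 h it went from 8.29, 11.4 and 7.12 TPM to 143, 142.8 and 101 TPM. Over all 4 comparisons the mock libraries spanned 7.12 to 12.8 TPM and the IFN libraries 101 to 164 TPM, and the ratios of means were 14.5, 12.1, 14.5 and 12.3. The fitted differences were 3.72, 3.49, 3.72 and 3.50 with an SE of 0.19. The GBP1 to GBP3 ratio in IFN libraries lay between 1.69 and 2.51.

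GBP2 started highest and rose least. It is a prenylated GBP that acts with GBP5 against the host protease furin, which many viruses need to process their envelope proteins. The mock libraries held 9.67 to 17.5 TPM, the highest median of the 7 genes at 13.5 TPM. Under IFN, siFLuc libraries held 56.9, 50.5 and 31.3 TPM at 8 h and 55.3, 68.1 and 39.4 TPM at 12 h, and siBOP1 libraries held 60.8, 65.4 and 45.3 TPM at 8 h and 68.6, 77.8 and 43.0 TPM at 12 h. The last value in each group, from the library numbered 4, was the lowest each time. The means rose 3.94, 4.29, 4.11 and 4.20 times, and the fitted differences were 1.86, 2.01, 1.97 and 1.96 with an SE of 0.25. The lowest IFN library was still 2.34 to 2.65 times the highest matched mock library.

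GBP4, which lacks the prenylation motif of GBP1, GBP2 and GBP5, went from 0.019 to 0.898 TPM in mock libraries to 44.5 to 83.1 TPM under IFN. Its siFLuc IFN values were 66.9, 63.3 and 44.9 TPM at 8 h and 73.1, 72.1 and 51.4 TPM at 12 h. The siBOP1 values were 83.1, 57.8 and 49.4 TPM at 8 h and 44.5, 59.8 and 51.0 TPM at 12 h. The fitted differences were 5.32, 5.53, 5.80 and 5.60 with an SE of 0.21. As ratios of mean TPM the rise was 115, 156, 493 and 632 times, resting on mock values of at most 0.898 TPM. Under IFN, GBP4 lay near GBP2, which had started far above it.

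GBP5, a Golgi-associated GBP that reduces the furin-dependent maturation of viral glycoproteins, was the scarcest member in all 12 IFN libraries. Mock libraries held 0.016 to 0.199 TPM. Under IFN it reached 7.85, 5.38 and 4.64 TPM at 8 h and 8.14, 7.71 and 5.79 TPM at 12 h in siFLuc cells, and 6.65, 5.93 and 3.57 TPM at 8 h and 6.86, 6.45 and 5.86 TPM at 12 h in siBOP1 cells. Its fitted differences were 2.66, 2.91, 2.59 and 2.74 with an SE of 0.19. Because its levels lie near the pseudocount of 1 TPM, these values depend on it: with a pseudocount of 0.1 they were 5.07, 5.30, 5.27 and 5.04. As ratios of mean TPM GBP5 rose 73.2, 81.6, 139 and 58.4 times, above GBP1 in each comparison. Those ratios rest on mock values of at most 0.199 TPM, whose counting error is unknown.

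**Figure D1:**
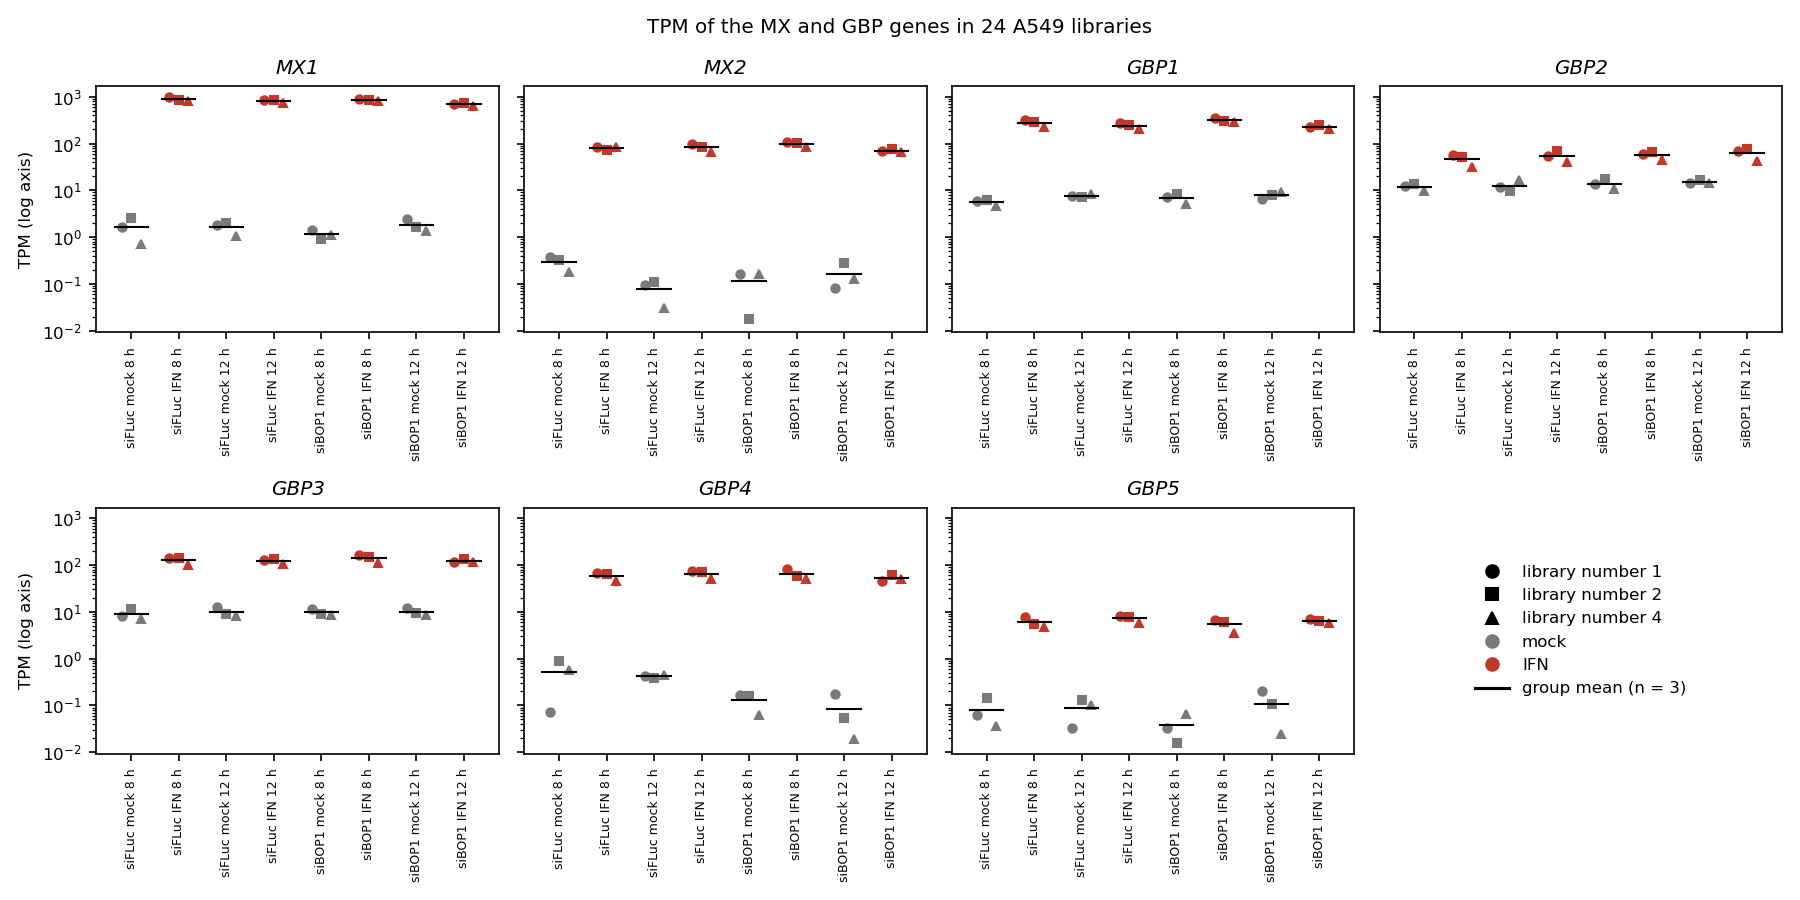
TPM on a log axis for each gene (panels) in the 24 libraries, grouped by siRNA, treatment and time; symbols give the library number, grey is mock, red is IFN, and the line is the mean of 3 libraries. In every panel the 12 IFN libraries lie above the 12 mock libraries, with the smallest gap in GBP2.

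The 7 genes were called higher in all 4 comparisons of IFN with mock, at an adjusted p between 1.41e-18 and 1.88e-05 (limma, Benjamini-Hochberg over 16062 genes). Over all tested genes, 5.77% were called higher in siFLuc cells at 8 h, 7.06% in siFLuc cells at 12 h, 5.99% in siBOP1 cells at 8 h and 7.17% in siBOP1 cells at 12 h. The median difference of the members was 5.32, 4.80, 5.34 and 4.66 beside -0.09, -0.06, -0.14 and -0.08 over all tested genes. The share of all tested genes called lower was 5.07%, 6.43%, 9.11% and 7.58% in the same order, and none of the members was. MX2, GBP4 and GBP5 reached 1 TPM in none of the 12 mock libraries, so they could enter the test only through the IFN libraries; the other 4 reached it in at least 3 mock libraries. In each comparison every IFN library lay above every mock library for all 7 genes, which held for 9.92%, 11.0%, 10.1% and 12.4% of tested genes in the same order.

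**Figure D2:**
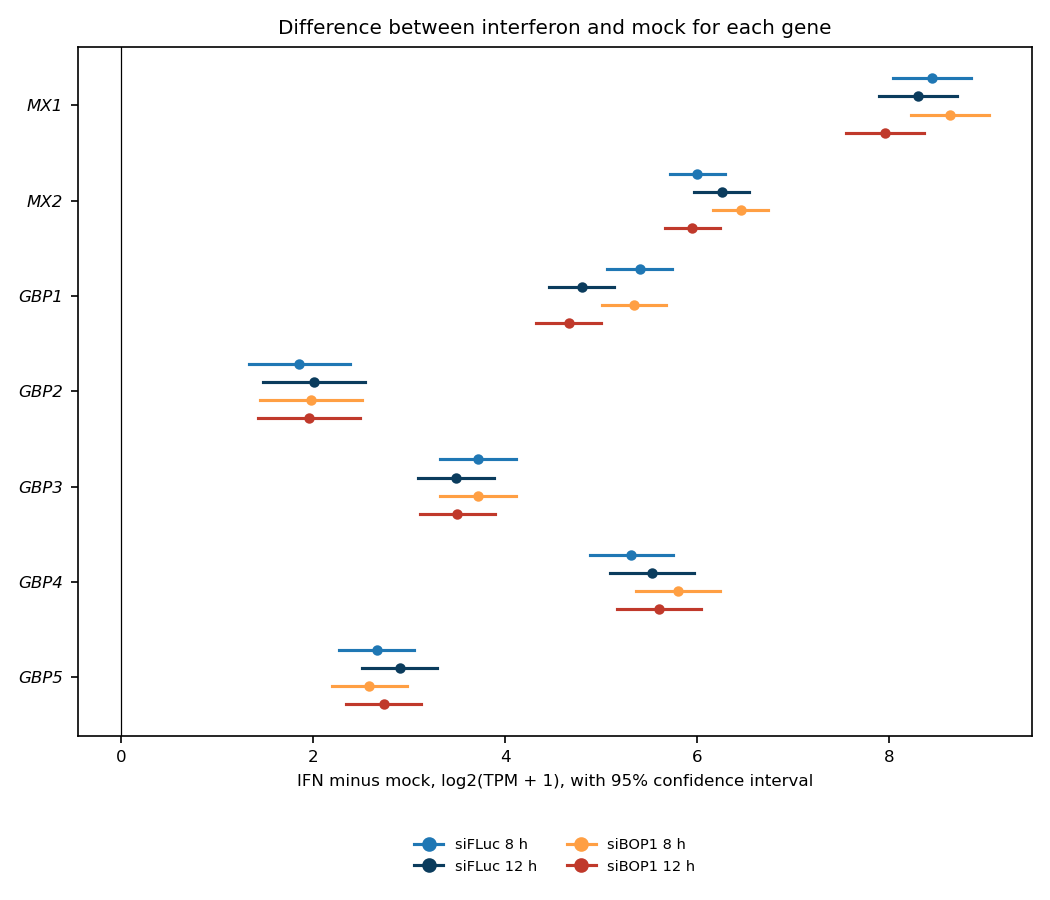
Difference between IFN and mock in log2(TPM + 1) for each gene, with its 95% confidence interval, in the 4 combinations of siRNA and time. MX1 lies between 7.96 and 8.63, GBP2 between 1.86 and 2.01, and the intervals of the 4 combinations overlap for each gene except GBP1, whose 12 h siBOP1 interval overlaps neither of its 8 h intervals.

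The order of levels under IFN was MX1, GBP1, GBP3, MX2, GBP4, GBP2 and GBP5, by the median of the 12 IFN libraries (823.5, 262, 129, 83.5, 58.8, 56.1 and 6.19 TPM). TPM is per length, so levels can be set side by side between genes. Neighbours in this order did not overlap in any of the 4 IFN groups, apart from MX2 and GBP4, which overlapped in 2 groups, and GBP4 and GBP2, which overlapped in all 4. GBP4 was above GBP2 in 9 of 12 IFN libraries. In mock cells the order was GBP2, GBP3, GBP1, MX1, GBP4, MX2 and GBP5, with medians of 13.5, 9.14, 7.30, 1.51, 0.169, 0.145 and 0.065 TPM. There only GBP1 and MX1 stayed apart in all 4 groups, while GBP4 and MX2 overlapped in 3 of 4 groups, as did MX2 and GBP5.

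The libraries numbered 4 gave lower IFN values for most members. Relative to the mean of the libraries numbered 1 and 2 of the same group, GBP2 stood at 0.583 to 0.719, GBP5 at 0.568 to 0.880, GBP4 at 0.690 to 0.978, GBP3 at 0.707 to 0.951, GBP1 at 0.765 to 0.867 and MX1 at 0.875 to 0.937, below 1 in 4 of 4 IFN groups for each of these. MX2 was below 1 in 3 of 4 groups, at 0.732 to 1.06. Compared within a library number, the IFN difference of GBP2 at 12 h in siFLuc cells was 2.13, 2.70 and 1.21 on the log2(TPM + 1) scale for the numbers 1, 2 and 4, the widest relative spread of a member; for MX1 there it was 8.28, 8.12 and 8.51. Mock libraries were mixed. For GBP3 the number 4 library was the lowest of each mock group (7.115, 8.116, 8.534 and 8.485 TPM). For GBP1 in mock cells at 12 h it was the highest with both siRNAs (8.241 and 9.333 TPM). The share of all tested genes with lower values in the number 4 libraries was not computed, so the pattern is not shown to be particular to the members. The part of the library number in these levels was not tested.

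The question posed by the BOP1 siRNA was whether depletion changes the response to interferon. None of the 7 genes was called different between siBOP1 and siFLuc cells in any of the 4 comparisons (limma, lowest adjusted p 0.488 and 0.453 in mock cells at 8 h and 12 h, and 0.483 and 0.743 under IFN), and none had an unadjusted p under 0.05. Over all tested genes, 2.16%, 1.60%, 2.0% and 0.660% were called in the same order. The estimates for the members ran from -0.38 (GBP4) to 0.25 (GBP1) in mock cells at 8 h and from -0.39 (GBP4) to 0.26 (GBP2) at 12 h. Under IFN they ran from -0.13 (GBP5) to 0.33 (GBP2) at 8 h and from -0.33 (GBP4) to 0.21 (GBP2) at 12 h. The 95% intervals of the 7 genes under IFN stayed within -0.522 to 0.857 at 8 h and -0.762 to 0.736 at 12 h, so differences within those bounds remain possible.

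Single members separated the siRNAs without passing the test. MX1 under IFN at 12 h was 701, 732 and 644 TPM in siBOP1 and 865, 832 and 742 TPM in siFLuc libraries, with no overlap and a difference of -0.23 (95% interval -0.64 to 0.17, adjusted p 0.851). GBP4 in mock cells at 12 h was 0.173, 0.054 and 0.019 TPM in siBOP1 and 0.417, 0.388 and 0.456 TPM in siFLuc libraries, also without overlap, all below 1 TPM, with a difference of -0.39 (adjusted p 0.453). With a pseudocount of 0.1 the GBP4 difference was -1.60 (adjusted p 0.0693). MX2 in mock cells at 8 h was 0.161, 0.018 and 0.165 TPM in siBOP1 and 0.369, 0.32 and 0.177 TPM in siFLuc libraries (adjusted p 0.626). That left 1 of 7 members without overlap in each of mock 8 h, mock 12 h and IFN 12 h and 0 of 7 in IFN 8 h, where 20.1%, 17.9%, 13.0% and 19.8% of tested genes had none. With so few genes, these counts lie near the shares over all tested genes, so the separation is not particular to these members.

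The size of the IFN response was not shown to differ with the siRNA. In the test of the interaction no member was called at 8 h or at 12 h, and neither was any other tested gene (0.00% at both times; limma, 353 and 259 genes at an unadjusted p under 0.05). MX2 at 8 h was the only member among those 353 genes: its IFN difference was larger in siBOP1 than in siFLuc cells by 0.45 (95% interval 0.04 to 0.86, limma's unadjusted p 0.0315, adjusted p 1). At 12 h the MX2 value was -0.31 (-0.71 to 0.10). For GBP4 the interaction was 0.49 at 8 h (-0.13 to 1.10). The members ran from -0.07 (GBP5) to 0.49 (GBP4) at 8 h and from -0.35 (MX1) to 0.07 (GBP4) at 12 h.

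No member was called different between 8 h and 12 h of IFN with either siRNA. In siFLuc cells none of the 7 was called (3.53% of tested genes were), none had an unadjusted p under 0.05, and 0 of 7 had non-overlapping libraries, against 22.9% of tested genes. Their differences ran from -0.18 (GBP1) to 0.25 (GBP5). In siBOP1 cells none was called either (2.96% of tested genes were), with a range from -0.48 (GBP1) to 0.24 (GBP5).

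MX1, MX2 and GBP1 gave lower values at 12 h than at 8 h in siBOP1 cells under IFN, with no overlap between the times; 3 of 7 members compares with 23.9% of tested genes that did not overlap in either direction. MX2 went from 108, 100.3 and 82.7 TPM to 70.3, 77.7 and 64.5 TPM, a difference of -0.44 (SE 0.14, adjusted p 0.0820). GBP1 went from 346, 309 and 284 TPM to 226, 247 and 200.3 TPM, a difference of -0.48 (SE 0.16, adjusted p 0.111). MX1 went from 896, 843 and 815 TPM to 701, 732 and 644 TPM, a difference of -0.30 (SE 0.19, adjusted p 0.447). With the library number as a block within each time, MX2 and GBP1 were called lower at an adjusted p of 0.0163 and 0.0175, so 2 of 7 members were called where 3.11% of tested genes were called lower in that fit, up from 0.511% without the block.

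The IFN difference itself was compared between the times. In siFLuc cells it was smaller at 12 h by 0.61 for GBP1 (interaction -0.61, 95% interval -1.08 to -0.13, limma's unadjusted p 0.0151), and in siBOP1 cells the interaction was -0.68 for GBP1 (-1.16 to -0.21), -0.68 for MX1 (-1.25 to -0.10) and -0.50 for MX2 (-0.91 to -0.10), with unadjusted p of 0.00726, 0.0229 and 0.0179. None passed adjustment (adjusted p 1 for each), and 0.00623% of tested genes in siFLuc cells and 0.00% in siBOP1 cells did (575 and 603 genes had an unadjusted p under 0.05). For GBP1 the mock libraries took part in this: they held 5.77, 6.13 and 4.60 TPM at 8 h and 7.43, 7.36 and 8.24 TPM at 12 h in siFLuc cells. For MX1 in siBOP1 cells the mock libraries held 1.42, 0.931 and 1.12 TPM at 8 h and 2.47, 1.65 and 1.36 TPM at 12 h, which overlap, while its difference between the times under IFN was -0.30. GBP2, GBP3, GBP4 and GBP5 gave interactions between -0.23 (GBP3) and 0.25 (GBP5), both in siFLuc cells; in siBOP1 cells GBP5 gave 0.15.

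**Figure D3:**
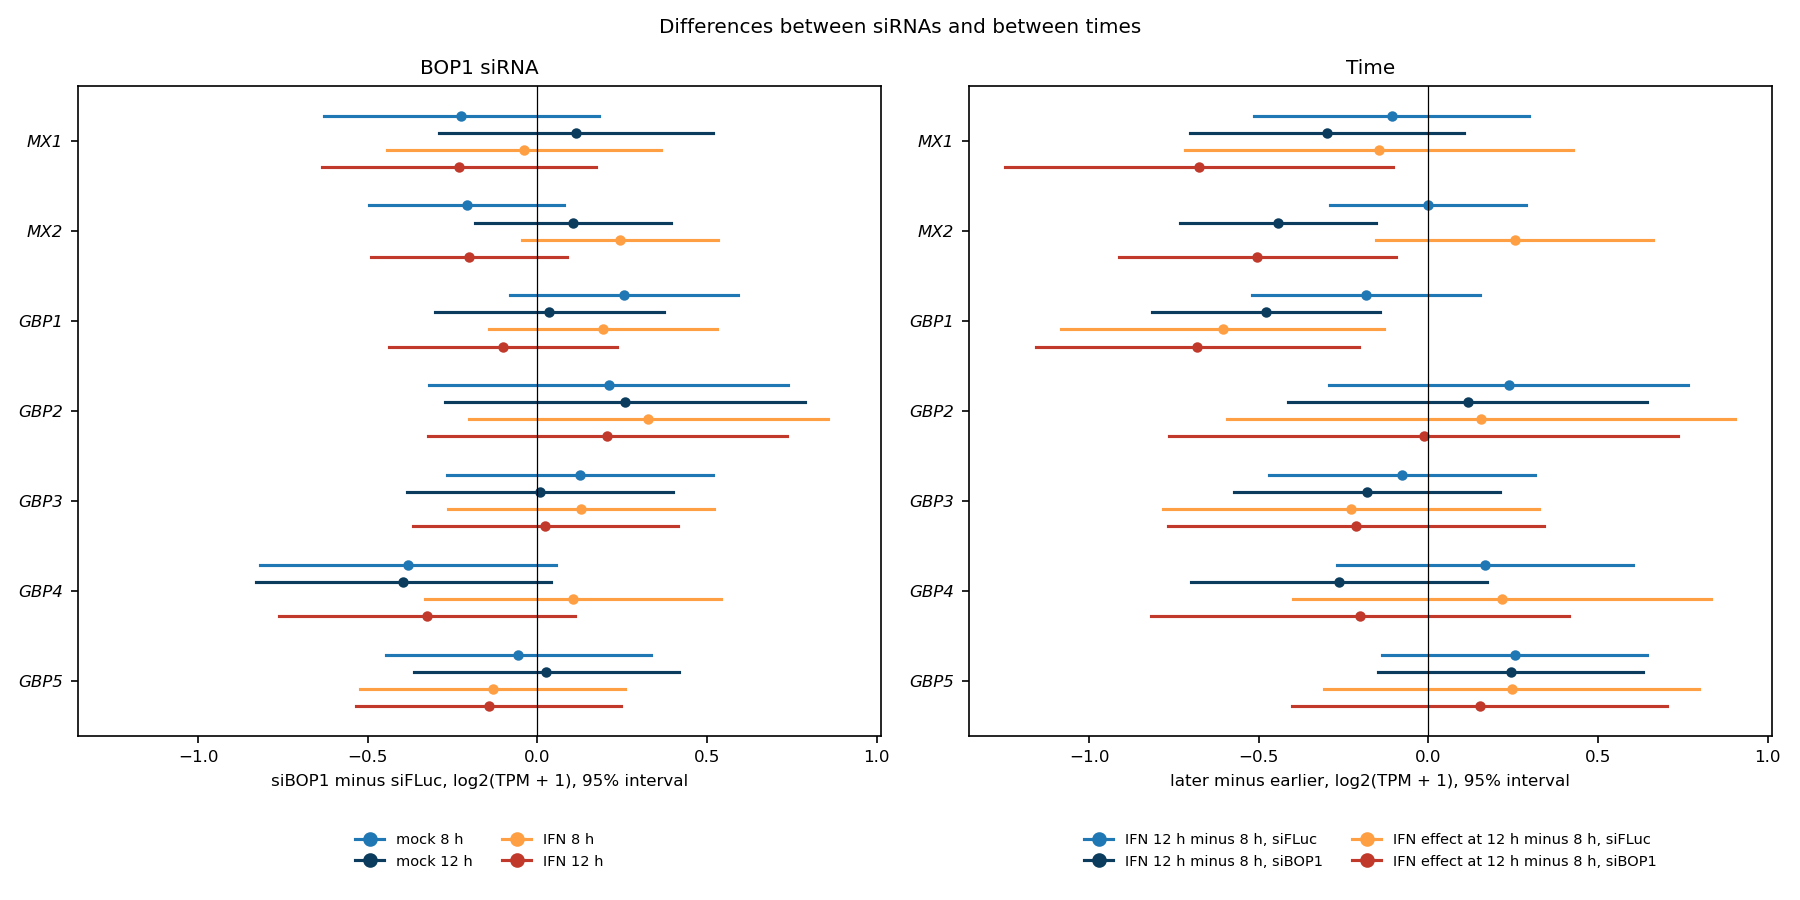
Left, difference between siBOP1 and siFLuc in log2(TPM + 1) for each gene in mock and IFN cells at 8 h and 12 h; right, difference between 12 h and 8 h under IFN and the change of the IFN effect between the times; bars are 95% confidence intervals. All intervals on the left include 0, and those on the right that do not are GBP1 in siFLuc cells and MX1, MX2 and GBP1 in siBOP1 cells.

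The listed genes of IFN signalling, which include both activators of MX and GBP transcription and negative regulators, responded in part. Of 12 listed IFN signalling and transcription genes, 7, 7, 7 and 8 were called higher and 1, 0, 1 and 0 lower in the 4 comparisons, with medians of 2.64, 2.20, 2.57 and 2.14. The shares over all tested genes were 5.77% to 7.17% higher and 5.07% to 9.11% lower. STAT2, a subunit of ISGF3, had 5.61 to 12.7 TPM in mock and 126 to 203 TPM in IFN libraries and rose by 3.74 to 4.20. The negative regulators USP18 and SOCS1 rose by 4.28 to 4.91 and by 3.05 to 4.04. SOCS1 reached 1 TPM in only 2 of 12 mock libraries, so it met the filter only through the IFN libraries. The receptor subunit IFNAR1 was the gene called lower at 8 h, by -0.59 in siFLuc and -0.41 in siBOP1 cells. JAK2, a kinase of the interferon gamma receptor, was the 1 of 3 genes of that receptor list that was called, and it rose by 1.33 to 1.63. None of 5 interferon ligand genes reached the level needed for testing, and IFNG was listed at 0 in every library. IFNL2 and IFNL3 were listed at 0 in all 12 mock libraries and at 0.107 to 1.129 and 0.127 to 1.161 TPM under IFN. IFNL1 held at most 0.099 TPM in mock and 0.117 to 1.109 TPM in IFN libraries. IFNB1 was listed at 0 in all mock libraries and reached at most 0.294 TPM under IFN.

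Relatives of the members did not all take part. Among the GBP and immunity-related GTPase relatives, GBP7 is the neighbour of GBP2 and GBP4. It was listed at 0 in all mock libraries and at 0.178 to 0.906 TPM under IFN. GBP6 was also listed at 0 in all mock libraries and reached at most 0.113 TPM under IFN. IRGM was listed at 0 throughout. IRGQ was the only gene of those 5 that was tested, and it was not called in any comparison. GBP1P1, a transcribed pseudogene of GBP1 in the same cluster, was called higher in all 4 comparisons by 3.23 to 3.35, from 0 to 0.119 TPM in mock to 5.99 to 12.3 TPM in IFN libraries. This pseudogene reached 1 TPM in 0 of 12 mock libraries, so it met the filter only through the IFN libraries. GBP1 stood 22.8 to 36.8 times above it in the IFN libraries. Over all tested genes, 5.77% to 7.17% were called higher in the 4 comparisons. The other listed pseudogene, GVINP1, reached at most 0.062 TPM and was not tested.

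Sequence shared with other genes, inside or outside the family, bears on how reads could be assigned to the members. Of the 31-base words in GBP1 transcripts (GENCODE 29), 18.4% also occurred in another gene, 10.7% in GBP1P1. The share was 12.3% for GBP2 (9.44% with GBP7), 12.4% for GBP3 (9.45% with GBP1) and 10.9% for GBP4. For GBP4 most of this lay outside the family, with 2.28% shared within it (1.95% with GBP7). The share with any other gene was 2.14% for MX1 (0.432% with MX2), 2.05% for MX2 and 1.90% for GBP5. How the authors assigned reads shared between genes is not given in the sources used here. The GBP1, GBP2, GBP3 and GBP4 values are therefore uncertain, by an amount that shares of words do not measure. The same limit holds for the rise of the scarcer GBP1P1 and GBP7, which share words with GBP1 and GBP2. Whether their levels include reads from those more abundant genes was not tested. Strand use in counting, which would separate MX1, GBP4 and GBP5 from their antisense neighbours, is not given either.

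Most other dynamin superfamily genes, which shape organelle membranes, did not follow MX and GBP. Of 14 tested, 1 was called higher in each comparison and 2, 1, 3 and 3 lower, beside the shares of 5.77% to 7.17% higher and 5.07% to 9.11% lower over all tested genes. The gene called higher was EHD4, an endosomal ATPase, which went from 5.17 to 9.68 TPM in mock to 22.4 to 31.1 TPM in IFN libraries and rose by 1.70 to 2.12. ATL3, which fuses tubules of the endoplasmic reticulum, fell by 0.36 to 0.57 and was called lower in all 4. EHD2, an ATPase of caveolae, was called lower in siBOP1 cells at 8 h and 12 h (-0.52 and -0.39), and DNM1, the neuronal dynamin, in siBOP1 cells at 8 h (-0.57). The 6 genes of CaaX prenylation, the lipid modification that anchors GBP1, GBP2 and GBP5 to membranes, gave 0 calls at 8 h with either siRNA and 1 at 12 h with each, ICMT, the methyltransferase of the last step, at -0.38 in siFLuc and -0.37 in siBOP1 cells.

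Genes that GBPs are known to engage in the inflammasome rose in part. Of 9 listed, 6 were tested, and 3, 3, 3 and 4 were called higher and 0, 1, 0 and 1 lower. The shares over all tested genes were 5.77% to 7.17% higher and 5.07% to 9.11% lower. CASP1, the protease of the canonical inflammasome, went from 0 to 1.56 TPM in mock to 27.4 to 50.5 TPM in IFN libraries and rose by 4.21 to 5.07. CASP1 reached 1 TPM in only 2 of 12 mock libraries, so it met the filter only through the IFN libraries. CASP4, which senses lipopolysaccharide on GBP1 coats, rose by 1.54 to 2.16, and GSDMD, the pore-forming protein they cleave, by 1.52 to 1.79. IL18, a cytokine cut by CASP1, was called lower at 12 h, by -0.48 in siFLuc and -0.41 in siBOP1 cells. None of 8 host factors linked to MX proteins, among them the helicases DDX39A and DDX39B and the capsid-binding PPIA and CPSF6, was called in any of the 4 comparisons. With so few genes, that count lies near the shares over all tested genes.

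**Figure D4:**
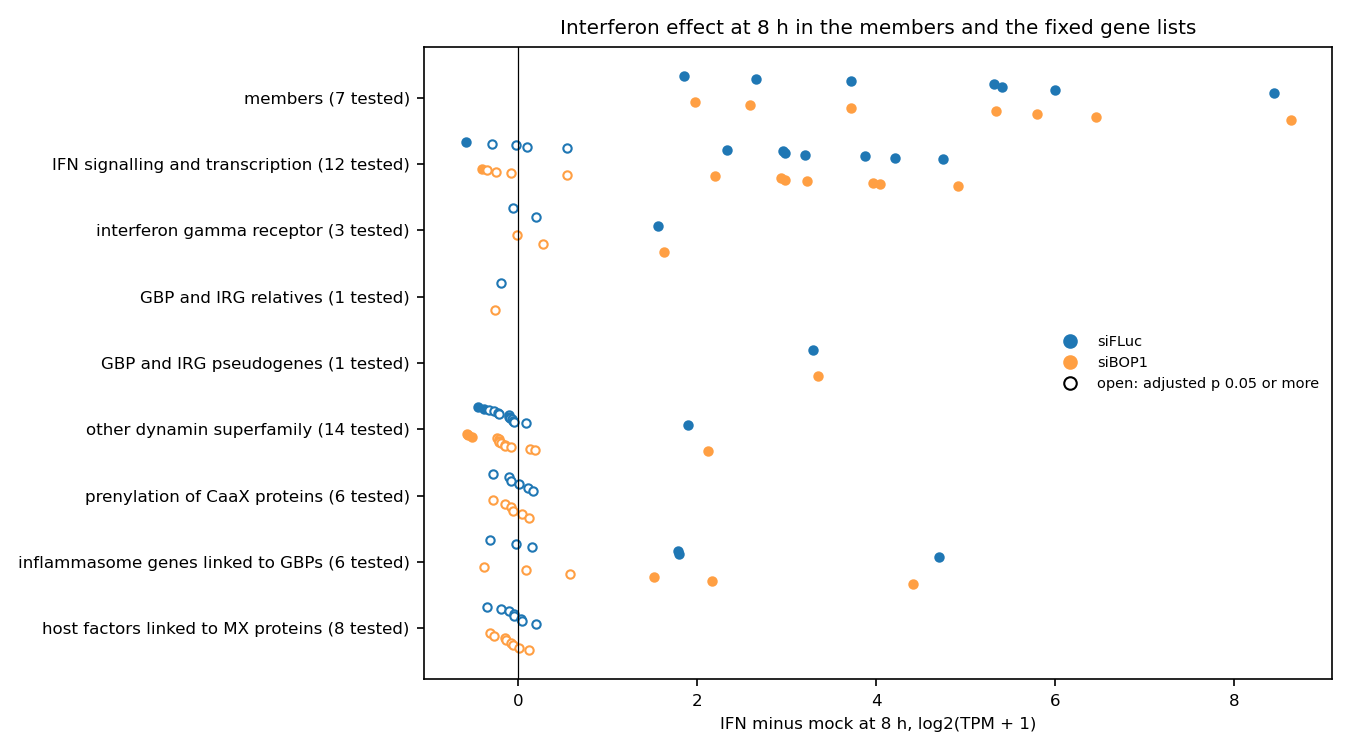
Difference between IFN and mock at 8 h in log2(TPM + 1) for the members and the listed gene groups; each point is a gene, blue in siFLuc and orange in siBOP1 cells, filled where the adjusted p was under 0.05. The members lie between 1.86 and 8.63, while host factors linked to MX proteins and prenylation genes have no filled point.

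The genes whose pattern was most like each member over the 24 libraries were found by Pearson r of log2(TPM + 1). This is a description: the 24 libraries share their groups, and most of the variation is the step from mock to IFN. For MX1 they were OASL (0.9985), IFI44L (0.9984) and MX2 (0.9980), and for MX2 they were OASL, MX1 and RSAD2 (0.9985, 0.9980 and 0.9978). GBP1 was nearest to PHF11, SP100 and RSAD2 (0.9978, 0.9971 and 0.9968) and GBP3 had SHFL and SAMD9L (0.9963 and 0.9962) among its 3 nearest. GBP4 was nearest to HERC5, IDO1 and XAF1 (0.9963, 0.9963 and 0.9959) and GBP5 to IDO1, LAMP3 and UBA7 (0.9945, 0.9936 and 0.9936). GBP2 had looser neighbours, SCARB2, GTPBP1 and RASGRP3 (0.9817, 0.9756 and 0.9745). No GBP had another member among its 3 nearest genes.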

How the data were processed

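The deposited values are TPM per gene, made by the authors from stranded mRNA libraries (kit per the labels' protocols); aligner, build, annotation and depth are not given in the sources used here. Of 24 columns, 16 matched a labelled replicate and 8 only a group. The labels do not say that replicates came from separate cultures, so p-values measure the spread between these libraries, which may be technical. The 16062 genes at 1 TPM or more in 3 or more libraries entered limma 3.58.1 (R 4.3.3) on the log2(TPM + 1) scale (trend, 1 mean per group, 24 libraries, no block), with 14 comparisons and Benjamini-Hochberg adjustment over genes within each at 0.05. This scale understates changes of low genes. Scripts were tested on simulated data.

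Members and lists were chosen with earlier results of these data known. Beside the 7 members and BOP1, the text names the 3 genes with the highest r to each member and, per list, up to 4 called genes with the largest mean IFN effect; further list genes were named after their values were seen. A gene that this rule names is not reported here. Same-numbered libraries deviated together from their group means (correlation 0.115 to 0.508, over 0.1 in 24 of 24). The highest value was for number 4, and an offset shared by the number 4 libraries would enter all of these correlations. Between the labelled numbers 1 and 2 alone the correlation was -0.012 to 0.156 and over 0.1 in 3 of 8 comparisons. Whether the numbers pair was not tested further, and the reported fit has no block. Alternatives were another pseudocount or filter, 2 rescalings, no trend, only the groups compared, a replicate block, numbers 1 and 2 only, and leaving out each library.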

Additional observations from a re-analysis of the deposited data

How the results depend on the processing

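The 28 IFN differences of the members kept their direction and stayed past the threshold in 416 of 416 recomputed values (highest adjusted p 0.00702), at 0.909 to 2.04 times the reported value; the pseudocount of 0.1 moved GBP5 most. A filter at a mean of 5 TPM left GBP5 out. The count of members called lower at 12 h in siBOP1 cells under IFN, 0 as reported, was 1 with median-of-ratios rescaling, 2 with the replicate block within each time and 2 with the numbers 1 and 2 only, where 2.02%, 3.11% and 2.07% of tested genes were called lower, against 0.511% as reported; the cause was not tested. The member was MX2 in the first (-0.57, adjusted p 0.0387), and MX2 and GBP1 in the others. The replicate block changed no other count of members. Median-of-ratios rescaling shifted the median of all genes by 0.136 in the IFN effect of siBOP1 cells at 8 h and by -0.103 in that time comparison. Of 70 values that did not pass the threshold, 30 changed sign under at least 1 alternative. Of those printed, the siRNA by IFN interaction of GBP5 at 8 h turned to 0.20 with a pseudocount of 0.1 and to 0.0603 with numbers 1 and 2 only, that of GBP4 at 12 h to -0.15 with numbers 1 and 2 only, and the time by IFN interaction of GBP5 in siBOP1 cells to -0.23 and -0.0965 in the same settings. Leaving out 1 library turned the siRNA difference of GBP5 under IFN at 8 h to 0.0558 without siFLuc library 1 and 0.0925 without siBOP1 library 4 (range -0.279 to 0.0925), and that of GBP2 at 12 h to -0.00275 without siFLuc library 4 (-0.00275 to 0.457). It turned the GBP5 interaction at 8 h to 0.113 and 0.150 without the same libraries as for its siRNA difference (-0.222 to 0.150), the GBP4 interaction at 12 h to -0.0946 without siFLuc IFN library 4 and -0.038 without siBOP1 IFN library 2 (-0.0946 to 0.171), and the GBP5 time interaction in siBOP1 cells to -0.0734 without the 8 h IFN library 4 (-0.0734 to 0.298). The cause was not tested. The unknown depth limits what can be said of MX2, GBP4 and GBP5 in mock cells.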
